A study of Mus musculus with 59 samples.

Results

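The genes described here are 8 that skeletal muscle fibres use while they form or are rebuilt: Myh3, Myh8, Myl4, Actc1, Tnnt2, Mybph, Ncam1 and Ankrd1. They were chosen by symbol, and all 8 were found among the 24972 genes listed for gastrocnemius and for soleus. A fibre that is being built first assembles developmental forms of its contractile proteins and replaces them with adult fast or slow forms as it matures. After injury satellite cells divide and fuse into new fibres that pass through the same developmental program, so these transcripts are used as marks of regenerating fibres. Cardiotoxin (CTX), a snake venom peptide that destroys muscle fibres and spares satellite cells, starts this process in the injected muscle.

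RNA-seq values were available for 15 gastrocnemius libraries in 5 groups of 3 and for 10 soleus libraries in 2 groups of 5. The gastrocnemius mice were wild-type C57BL/6 males, 6 ± 1 months old, on a standard diet. The CTX-HC 30 DPI and CTX-HC 2 DPI mice had 10 µM CTX injected into the left hind limb and then received potassium hydroxycitrate (HC), an inhibitor of ATP citrate lyase, at 7.5 g per kg of diet for 30 or 2 days (DPI, days post injury). The CTX 30 DPI and CTX 2 DPI mice had the injury and no HC, and the C mice had neither. Soleus came from uninjured C57BL/6 mice on a standard diet with HC added (HC) or untreated (Ut). These mice were 41 weeks old, and HC had been given for 21 weeks. The 2 DPI and C mice came from 1 cohort that stayed uninjured until the 2 DPI injections. There was no gastrocnemius group with HC and without injury. By the study's description each gastrocnemius library came from 1 mouse. For soleus the sources used here do not say so, and p values there measure the spread between libraries.

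All values are normalized read values, for which the authors scaled the counts of each library by its median ratio. The estimated depth was 16.0 to 34.9 M reads per gastrocnemius library and 8.93 to 11.2 M per soleus library. Fold changes are differences of log2(value + 1), and a gene passed at an adjusted p under 0.05 (limma, Benjamini-Hochberg over 14033 gastrocnemius or 12067 soleus genes). All 8 genes were tested in both muscles. Muscle genes dominated every gastrocnemius library, with Acta1, the adult skeletal actin, at 269200 to 752600 and Ckm, muscle creatine kinase, at 124600 to 578500. Replicate 3 of CTX 2 DPI lay at -16.3 on the first principal component (51.7% of the variance), against 33.6 and 73.4 for the rest of its group and -71.4 to -16.0 for C. Replicate 3 of CTX-HC 30 DPI lay at 71.5, against -78.7 and -71.9 for the rest of its group, and inside the CTX-HC 2 DPI range (44.0 to 111). Where stated, results are given with and without these 2 libraries, called the outlying pair below, an alternative chosen after the data were seen. Marker lists, genes outside the 8 and medians are given only with them. Replicate 1 of CTX 30 DPI lay at 1.53, against -76.7 and -68.0 for the rest of its group, and its summed macrophage markers were at 6931, against 925 and 751 in that rest. Leaving it out changed the call of none of the 8 genes in any gastrocnemius comparison.

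Injury and HC gave few changes in these 8 genes that exceeded the spread between libraries. In CTX-HC 2 DPI muscle Ankrd1, a stress-induced titin-binding protein, was higher and Actc1, the fetal sarcomeric actin, was lower than in C. In that comparison 9.93% of all genes passed. Both differed again, in the opposite direction, in CTX-HC 30 DPI muscle against CTX-HC 2 DPI muscle, where 9.74% of all genes passed. Both calls in each comparison were lost when certain single libraries were left out. In CTX 2 DPI against C, Ankrd1 and Actc1 had log2 fold changes in the same directions (3.09 and -1.18) but did not pass. The developmental myosins Myh3 and Myh8, the light chain Myl4 and the troponin Tnnt2 did not pass in any comparison of the main fit. Their values spread by up to 30.0-fold between libraries of 1 group. HC changed none of the 8 genes past the threshold at 2 DPI, at 30 DPI or in soleus.

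**Figure D1:**
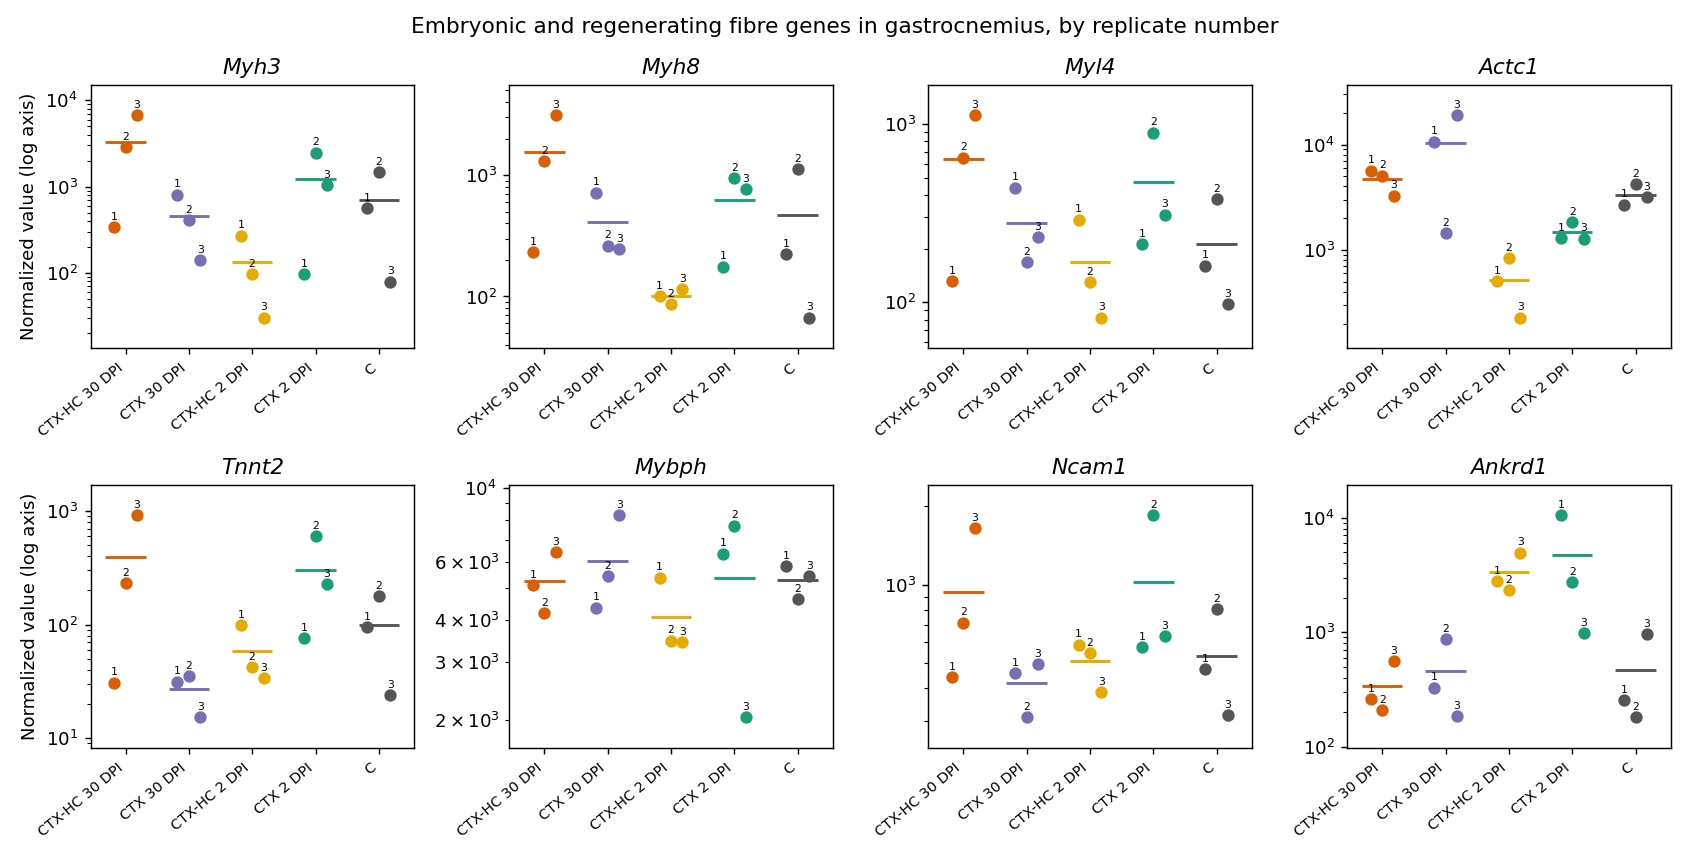
Normalized values of the 8 genes (log axis) in the 15 gastrocnemius libraries by group, with 1 point per library marked by its replicate number and a line at the mean of the 3 libraries. Ankrd1 lay between 977 and 10515 in the 6 libraries at 2 DPI and between 181 and 958 in the other 9, while Myh3 ran from 78.9 to 1462 within C alone.

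Myh3 encodes the embryonic myosin heavy chain, the first developmental motor protein of new fibres, and spans positions 67078273 to 67102291 of chromosome 11 (GRCm38). In replicates 1 to 3 of CTX-HC 30 DPI its value was 342, 2877 and 6722, against 809.5, 409 and 140.3 in those of CTX 30 DPI. In CTX-HC 2 DPI it was 270.4, 95.8 and 30.2, against 96.9, 2482 and 1052 in CTX 2 DPI. The C libraries had 563, 1462 and 78.9, and values below are in the same replicate order. Every pair of groups overlapped except CTX-HC 30 DPI and CTX-HC 2 DPI, where all 3 libraries at 30 DPI lay above all 3 at 2 DPI. That difference was 4.33 on the log2 scale (standard error 1.40, limma adjusted p = 0.0643) and missed the threshold. Groups did not overlap for 24.7% of all genes in that comparison.

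Myh8, the perinatal myosin heavy chain, lies on the same chromosome from 67277124 to 67308634, in the cluster of skeletal myosin genes. Its value was 232, 1300.4 and 3121 in CTX-HC 30 DPI, against 720.3, 262 and 246 in CTX 30 DPI. In CTX-HC 2 DPI it was 100.2, 85.9 and 115, against 176, 944 and 771 in CTX 2 DPI. In C it was 224, 1128 and 66.8. The CTX-HC 2 DPI values were close together and below all 3 CTX 2 DPI values, but C reached lower still. Between CTX-HC 2 DPI and CTX 2 DPI, 13.5% of all genes did not overlap. The Myh8 log2 fold change of CTX-HC 2 DPI over CTX 2 DPI was -2.33 (95% confidence interval -4.55 to -0.11, limma adjusted p = 0.662). Of the 50-base stretches of the longest Myh8 transcript 21.4% also occur in transcripts of other genes, most often Myh2, so reads could have been shared with adult myosins, and for Myh3 the share was 4.81%.

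Set against the adult myosins, both developmental chains stayed rare. Myh4 encodes the fast IIB heavy chain of adult gastrocnemius, and Myh1, Myh2 and Myh7 the IIX, IIA and slow chains. After division by transcript length, Myh3 made up 0.0228%, 0.154% and 0.853% of the summed level of these 6 genes in CTX-HC 30 DPI, against 0.0718%, 0.0246% and 0.00800% in CTX 30 DPI. It was 0.0571%, 0.0159% and 0.00424% in CTX-HC 2 DPI, against 0.00961%, 0.285% and 0.0885% in CTX 2 DPI. In C it was 0.0465%, 0.0805% and 0.00664%. Only replicate 3 of CTX-HC 30 DPI held more than 1% of Myh3 and Myh8 together (1.24%), and in it Myh4 was 54.1%, against 77.4% and 93.2% in the other 2 libraries of that group. These shares are a description with no test.

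**Figure D2:**
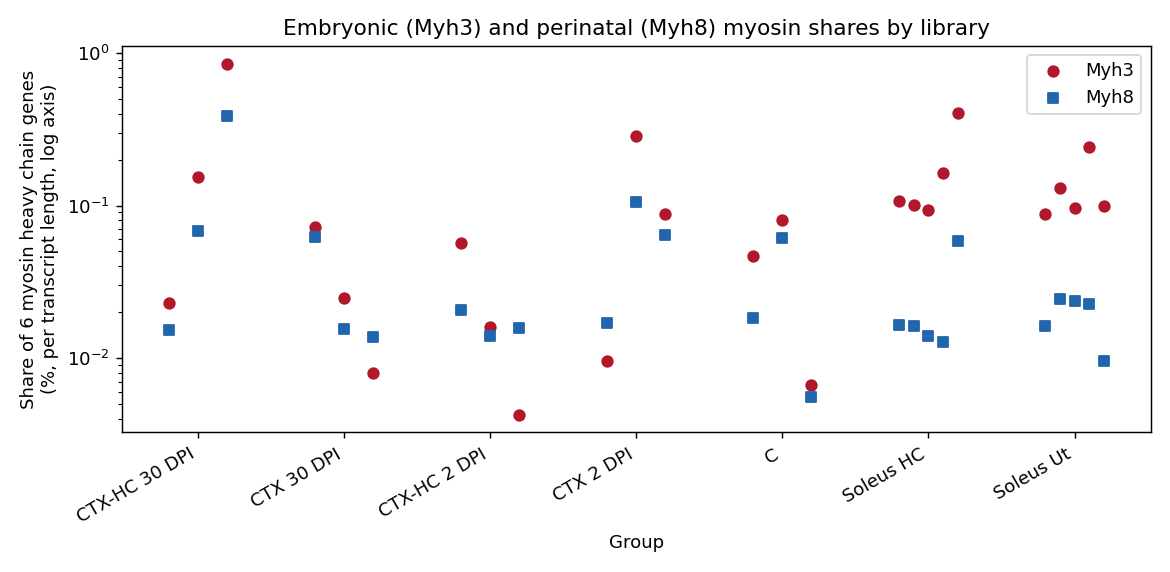
Share of Myh3 (circles) and Myh8 (squares) in the summed length-scaled level of 6 myosin heavy chain genes (percent, log axis), with 1 point per library for the 5 gastrocnemius and 2 soleus groups. Replicate 3 of CTX-HC 30 DPI had the largest Myh3 share, 0.853%, and the 10 soleus libraries lay between 0.0874% and 0.402%.

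Myl4, the essential light chain of embryonic muscle and of the atrium, lies on chromosome 11 from 104546017 to 104587215. It was 131, 649 and 1122 in CTX-HC 30 DPI, against 441, 168 and 233 in CTX 30 DPI. It was 292, 129.6 and 81.9 in CTX-HC 2 DPI, against 213, 896 and 311 in CTX 2 DPI, while C had 161, 381 and 98.0. All 5 groups overlapped with one another. Its log2 fold change of CTX-HC over CTX was -1.41 at 2 DPI (95% confidence interval -3.12 to 0.29) and 0.82 at 30 DPI (95% confidence interval -0.88 to 2.53).

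Actc1 encodes the sarcomeric actin that fetal skeletal muscle shares with the heart, and lies on chromosome 2 from 114047282 to 114052875. Its value was 5665, 5076 and 3274 in CTX-HC 30 DPI, against 10648, 1455 and 18954 in CTX 30 DPI. It was 504, 831 and 227 in CTX-HC 2 DPI, against 1302, 1833 and 1278 in CTX 2 DPI. The C libraries had 2689, 4210.2 and 3148. The 3 groups of CTX-HC 2 DPI, CTX 2 DPI and C did not overlap in any pair, with CTX-HC 2 DPI lowest and C highest. Of all genes 13.5% did not overlap between CTX-HC 2 DPI and CTX 2 DPI. Against C the share was 50.9% for CTX-HC 2 DPI and 29.1% for CTX 2 DPI. Only CTX-HC 2 DPI against C passed for Actc1 among these pairs. No 50-base stretch of the longest Actc1 transcript occurs in another gene, Acta1 included.

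Actc1 averaged 521 ± 302 in CTX-HC 2 DPI and 3349 ± 780.4 in C (SD, n = 3 each), and it fell by 2.85 on the log2 scale (standard error 0.72, limma adjusted p = 0.0337). In CTX 2 DPI it averaged 1471 ± 313 (SD, n = 3), with a log2 fold change against C of -1.18 (limma adjusted p = 0.43). Both comparisons share the C libraries. The call in CTX-HC 2 DPI was lost when any 1 of the 6 libraries compared was left out (limma adjusted p = 0.0561 to 0.150). Its limma adjusted p was 0.0186 without the outlying pair. Neither library of that pair is in the groups compared. The log2 fold change therefore stayed at -2.85, and only the spread shared by all groups in the fit changed.

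The promoter of Actc1 is shown because the gene is one of the pair that passed. The window is chr2:114052826-114053125 on the minus strand of GRCm38 (RefSeq), from 250 bases before to 50 after the start of the gene, and the capitals mark a CArG box, the site named for serum response factor. The match begins at -47, and 1.63% of all 32851 promoter windows of this length hold one.
Actc1: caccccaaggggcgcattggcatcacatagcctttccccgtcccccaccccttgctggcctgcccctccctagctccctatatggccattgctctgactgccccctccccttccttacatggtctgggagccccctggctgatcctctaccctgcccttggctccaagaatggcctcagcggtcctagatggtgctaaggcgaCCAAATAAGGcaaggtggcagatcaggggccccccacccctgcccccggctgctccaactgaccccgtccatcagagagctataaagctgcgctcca

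Tnnt2 encodes the cardiac form of troponin T, which embryonic and regenerating skeletal fibres also make, and lies on chromosome 1 from 135836315 to 135852268. It was 30.8, 232 and 923 in CTX-HC 30 DPI, against 31.5, 35.3 and 15.2 in CTX 30 DPI. It was 99.6, 42.5 and 33.9 in CTX-HC 2 DPI, against 75.6, 603 and 228 in CTX 2 DPI, and 95.4, 177 and 23.9 in C. The CTX 30 DPI libraries all lay below the CTX 2 DPI libraries, whereas CTX-HC 30 DPI held both very low and very high values. Between CTX 30 DPI and CTX 2 DPI, 26.7% of all genes did not overlap. The Tnnt2 log2 fold change of CTX 30 DPI over CTX 2 DPI was -3.04 (standard error 1.08, limma adjusted p = 0.158). Of 7 heart markers Myl7, an atrial light chain, was at 0 in all 15 libraries, Nppa, the atrial natriuretic peptide gene, reached 6.17 and Myh6, a cardiac myosin heavy chain, 79.8. The summed value of the 7 was highest in replicate 3 of CTX-HC 30 DPI (128.5) and replicate 2 of CTX 2 DPI (97.9), which also had the highest Tnnt2 values, against 14.3 to 23.3 in C. It was 95.9 in replicate 1 of CTX-HC 30 DPI, where Tnnt2 was 30.8, and 12.1 in replicate 2, where Tnnt2 was 232. Myh6 was also 304.9 to 546.9 in the 10 soleus libraries, where Myl7 was at 0 throughout, so the sum is not a measure of heart muscle alone. The part of the 7 markers in the Tnnt2 values was not tested.

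Mybph encodes myosin-binding protein H, a thick filament protein of fast fibres, and lies on chromosome 1 from 134193418 to 134201237. Its value was 5094, 4209 and 6434 in CTX-HC 30 DPI, against 4371, 5423 and 8306 in CTX 30 DPI. It was 5379, 3474 and 3440.1 in CTX-HC 2 DPI, against 6358, 7718 and 2038 in CTX 2 DPI, and 5812, 4626 and 5427 in C. All groups overlapped in every pair, and replicate 3 of CTX 2 DPI was lowest of all 15. Its adjusted p was at least 0.508 in every gastrocnemius comparison, with log2 fold changes between -0.39 and 0.37.

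Ncam1 encodes an adhesion molecule that satellite cells, newly fused fibres, denervated fibres and Schwann cells carry on their surface, and lies on chromosome 9 from 49502129 to 49799393. It was 443, 714 and 1651 in CTX-HC 30 DPI, against 456, 309 and 495 in CTX 30 DPI. It was 588, 547 and 386 in CTX-HC 2 DPI, against 576, 1851 and 633 in CTX 2 DPI, and 474, 803 and 315 in C. Only the CTX 30 DPI and CTX 2 DPI groups did not overlap, with CTX 30 DPI lower (log2 fold change -1.09, standard error 0.51, limma adjusted p = 0.243). For 26.7% of all genes these groups did not overlap. The summed value of 7 Schwann cell markers was 728.5 to 5031 in CTX-HC 30 DPI, 316.5 to 2273 in CTX 30 DPI, 448.5 to 5490 in CTX-HC 2 DPI, 390 to 1310 in CTX 2 DPI and 625 to 1324 in C. In replicate 3 of CTX-HC 30 DPI and replicate 2 of CTX 2 DPI, where Ncam1 was highest, that sum was 728.5 and 992.4, inside the range of C. The part of Schwann cells in the Ncam1 values was not tested.

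Ankrd1 encodes cardiac ankyrin repeat protein, which binds titin and is induced in muscle by stretch and damage, and lies on chromosome 19 from 36111965 to 36119844. Its value was 260.3, 210.3 and 557 in CTX-HC 30 DPI, against 329, 867 and 184 in CTX 30 DPI. It was 2782, 2331 and 4949 in CTX-HC 2 DPI, against 10515, 2714 and 977 in CTX 2 DPI. The C libraries had 257, 181 and 958. All 6 libraries at 2 DPI lay above all 9 others, although replicate 3 of CTX 2 DPI, at 977, was just above replicate 3 of C, at 958. Groups with and without HC overlapped at both times.

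Ankrd1 averaged 3354 ± 1399 in CTX-HC 2 DPI and 465 ± 429 in C (SD, n = 3 each), and it rose by 3.16 on the log2 scale (standard error 0.83, limma adjusted p = 0.0369). In CTX 2 DPI it averaged 4735 ± 5080.1 (SD, n = 3) and had a log2 fold change of 3.09 against C, but did not pass (limma adjusted p = 0.227). Only 0.271% of all genes had as large a change in that comparison. Without the outlying pair the change in CTX 2 DPI was 3.91 (limma adjusted p = 0.0548). The change in CTX-HC 2 DPI stayed at 3.16, with a limma adjusted p of 0.0102. The pair holds no library of CTX-HC 2 DPI or C, so there only the spread shared by all groups changed. With library numbers above 100 as a covariate the call in CTX-HC 2 DPI was lost (log2 fold change 3.22, limma adjusted p = 0.0739). The call in CTX-HC 2 DPI was lost without replicate 1 or 2 of C or any 1 of the CTX-HC 2 DPI libraries (limma adjusted p = 0.0566 to 0.166).

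The promoter of Ankrd1 is shown because it is the other gene that passed, at chr19:36119795-36120094 on the minus strand of GRCm38 (RefSeq). Capitals mark the TEAD site (MCAT) CATTCC, searched on both strands, which it holds at -210 and -123. Of all promoter windows 14.7% hold at least 1 such site and 1.36% at least 2.
Ankrd1: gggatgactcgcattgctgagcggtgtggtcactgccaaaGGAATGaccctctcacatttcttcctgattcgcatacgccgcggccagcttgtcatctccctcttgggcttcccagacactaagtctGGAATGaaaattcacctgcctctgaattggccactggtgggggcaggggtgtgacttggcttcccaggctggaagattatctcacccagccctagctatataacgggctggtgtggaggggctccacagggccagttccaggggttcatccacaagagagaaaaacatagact
A promoter window was found for 7 of the 8 genes, with 8 windows in all, since Tnnt2 had 2, and that of Myl4 starts inside the gene's listed span. The E-box CANNTG, the site of the myogenic factors, was in 7 of the 8 windows and in 72.3% of all windows, and no match overlapped another motif. TEAD sites were also in 1 window of Tnnt2 and in that of Mybph, and a MEF2 site was in that of Myh8 alone (3.19% of all windows). These matches are descriptions of sequence.

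At 2 DPI without HC, none of the 8 genes passed against C (limma; 0% of all genes passed, and 1 of the 8, Ankrd1, against 14.9% of all genes, had an unadjusted p under 0.05). At the authors' threshold (p of at most 0.05 and absolute log2 fold change of at least 1) Ankrd1 alone was called, as were 4.73% of all genes. The p value is taken here as the unadjusted limma p, whereas the authors used DESeq2. The groups of Actc1 and Ankrd1 did not overlap, as was the case for 29.1% of all genes. The median log2 fold change of the 8 genes was 0.90, against 0.03 over all genes. In CTX-HC 2 DPI against C, 1 of the 8 passed as higher (5.34% of all genes did) and 1 as lower (4.59% did, or 9.93% in either direction). The same 2 genes had an unadjusted p under 0.05 (35.9% of all genes had), and the same pair did not overlap (50.9% of all genes). The median there was -0.44, against 0.02 over all genes.

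HC changed none of the 8 genes past the threshold at 2 DPI (limma; 0% of all genes passed). Of the 8 genes, 7 had negative log2 fold changes of CTX-HC 2 DPI over CTX 2 DPI, with a median of -1.54, against 0.02 over all genes. Myh8 and Actc1 had an unadjusted p under 0.05 (0.0407 and 0.0374), as had 7.16% of all genes, and their groups did not overlap (13.5% of all genes). Actc1 averaged 521 ± 302 in CTX-HC 2 DPI and 1471 ± 313 in CTX 2 DPI (SD, n = 3 each), a log2 fold change of -1.66 (95% confidence interval -3.22 to -0.11, limma adjusted p = 0.662). For Myh3 the log2 fold change was -2.76 (95% confidence interval -5.79 to 0.26) and for Ankrd1 0.07 (95% confidence interval -1.72 to 1.85), and that of Ankrd1 was -0.75 without the outlying pair.

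Marker lists differed in the same comparison, with no gene past the threshold. All 14 adult fast fibre genes (median -0.79) and all 9 slow fibre genes (median -1.47) had negative log2 fold changes in CTX-HC 2 DPI against CTX 2 DPI, against a median of 0.02 over all genes. All 9 macrophage (median 1.43), 4 tested neutrophil (1.74), 6 fibroblast (0.88) and 7 Schwann cell (0.65) markers had positive ones. Negative ones were found for all 10 denervation and immature synapse genes (median -0.59) and 14 of 17 satellite cell and myogenic regulators (-0.41). They were also found for 7 of 11 other fetal and regenerating fibre genes (-0.90), whereas 8 of 11 sarcomeric stress genes had positive ones (0.06). At 30 DPI, in CTX-HC 30 DPI against CTX 30 DPI, 12 of the 14 fast fibre genes were negative (median -0.37), 8 of the 9 slow fibre genes positive (median 0.31) and 5 of the 9 macrophage markers positive (median 0.05). The part of these markers in the values of the 8 genes was not tested.

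**Figure D3:**
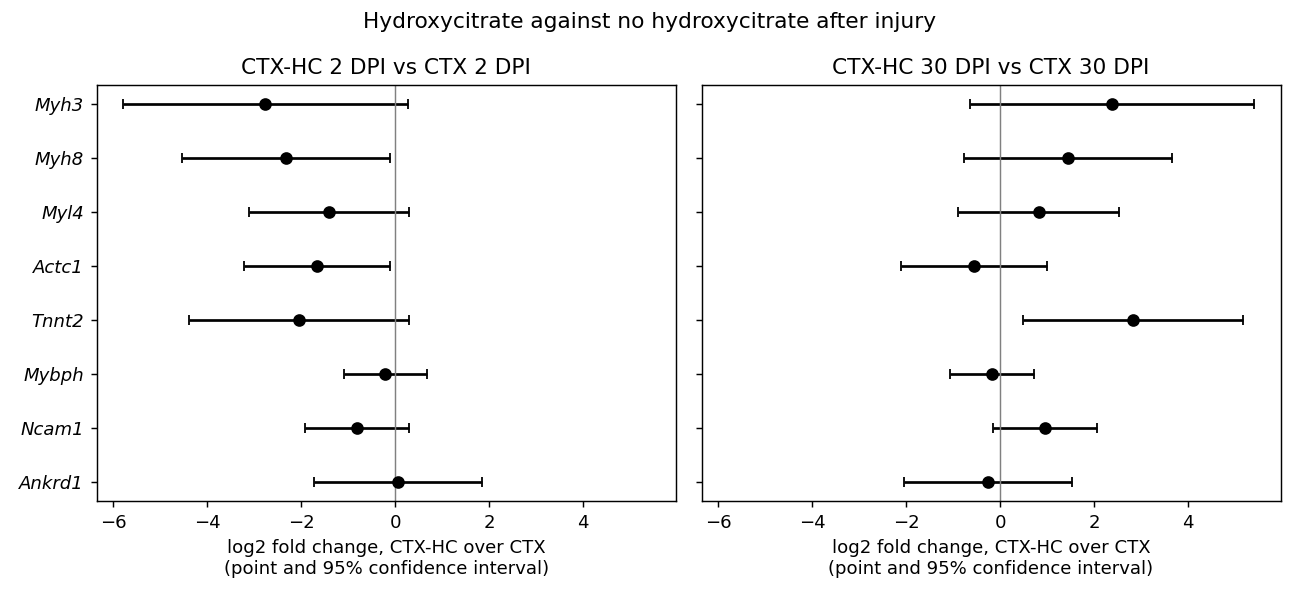
Log2 fold change of CTX-HC over CTX at 2 DPI (left) and 30 DPI (right) for the 8 genes, with points for the limma estimate and bars for its 95% confidence interval (n = 3 libraries per group). At 2 DPI 7 estimates were below 0 and the Myh8 interval ran from -4.55 to -0.11, and at 30 DPI the Tnnt2 interval ran from 0.49 to 5.17, with no adjusted p under 0.05 in either panel.

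At 30 DPI no gene passed in CTX 30 DPI against C, in CTX-HC 30 DPI against C or in CTX-HC 30 DPI against CTX 30 DPI (limma; 0% of all genes passed in each). Groups did not overlap for 0 of the 8 genes in each of these comparisons, against 10.9%, 8.20% and 2.19% of all genes. An unadjusted p under 0.05 was found for 0, 0 and 1 of the 8 genes, against 3.11%, 2.76% and 0.755% of all genes. The 1 gene in CTX-HC 30 DPI against CTX 30 DPI was Tnnt2, at 395 ± 468 in CTX-HC 30 DPI and 27.3 ± 10.7 in CTX 30 DPI (SD, n = 3 each), with a log2 fold change of 2.83 (95% confidence interval 0.49 to 5.17, limma adjusted p = 1). Replicate 1 of CTX-HC 30 DPI, at 30.8, lay inside the CTX 30 DPI range. The log2 fold change was 1.69 without the outlying pair. For Myh3 it was 2.38 with all libraries and 1.46 without that pair, and for Myh8 1.45 and 0.61.

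Between 30 and 2 DPI without HC, none of the 8 genes passed in CTX 30 DPI against CTX 2 DPI (limma; 0.257% of all genes passed, 0.0428% as higher and 0.214% as lower). Tnnt2, Actc1 and Ankrd1 had an unadjusted p under 0.05 (21.1% of all genes had), and the same 3 met the authors' threshold (8.88% of all genes did). The groups of Tnnt2, Ncam1 and Ankrd1 did not overlap (26.7% of all genes). Ankrd1 averaged 460.1 ± 359.5 in CTX 30 DPI and 4735 ± 5080.1 in CTX 2 DPI (SD, n = 3 each), with a log2 fold change of -3.01 (95% confidence interval -4.80 to -1.23, limma adjusted p = 0.116). It was -3.83 without the outlying pair and passed (limma adjusted p = 0.0249). Without replicate 3 of CTX-HC 30 DPI alone Ankrd1 passed as well (limma adjusted p = 0.0447). That library is in neither group compared, so only the spread shared by all groups changed and the log2 fold change did not. Without replicate 2 of CTX 30 DPI Actc1 passed, with a log2 fold change of 3.29 (limma adjusted p = 0.0181).

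With HC, 2 of the 8 genes passed in CTX-HC 30 DPI against CTX-HC 2 DPI (9.74% of all genes passed, 4.20% as higher and 5.54% as lower), and 4 had an unadjusted p under 0.05 (30.4% of all genes had). Actc1 averaged 4672 ± 1246 in CTX-HC 30 DPI and 521 ± 302 in CTX-HC 2 DPI (SD, n = 3 each) and rose by 3.31 on the log2 scale (standard error 0.72, limma adjusted p = 0.0188). Ankrd1 averaged 342 ± 187 in CTX-HC 30 DPI and 3354 ± 1399 in CTX-HC 2 DPI (SD, n = 3 each) and fell by 3.34 (standard error 0.83, limma adjusted p = 0.0299). Myh3, Myh8, Actc1 and Ankrd1 did not overlap between the groups (24.7% of all genes), and Myh3 and Myh8 missed the threshold (limma adjusted p = 0.0643 and 0.0579). After quantile normalization Myh3 and Myh8 passed, and Myh8 also passed in 1 fit with a library left out (limma adjusted p = 0.0448). The Actc1 call was lost without replicate 1 of CTX-HC 2 DPI or replicate 1 or 2 of CTX-HC 30 DPI (limma adjusted p = 0.0705 to 0.0850) and that of Ankrd1 without any 1 of the CTX-HC 2 DPI libraries or replicate 1 or 2 of CTX-HC 30 DPI (limma adjusted p = 0.0562 to 0.118). Both were lost when only the 2 groups were fitted (limma adjusted p = 0.0703 and 0.0575). The adjusted p was 0.00868 for Actc1 and 0.00493 for Ankrd1 without the outlying pair.

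Whether the HC difference itself changed between 30 and 2 DPI was tested as an interaction, and none of the 8 genes passed (limma; 0% of all genes passed). Myh3, Myh8, Tnnt2 and Ncam1 had an unadjusted p under 0.05, as had 2.53% of all genes. The largest interaction among the 8 genes was that of Myh3, at 5.14 on the log2 scale (95% confidence interval 0.86 to 9.42, limma adjusted p = 0.999), and that of Tnnt2 was 4.86. These were 3.86 and 3.69 without the outlying pair. These 4 genes are not separate evidence, because they were high in the same libraries.

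High values of Myh3, Myh8, Myl4, Tnnt2 and Ncam1 fell in the same libraries, from 3 different groups. For all 5 genes replicates 2 and 3 of CTX-HC 30 DPI, replicate 2 of CTX 2 DPI and replicate 2 of C were among the 5 highest of the 15, and replicate 3 of CTX 2 DPI was for 4 of them. Of the other 10 libraries, only replicate 1 of CTX 30 DPI was among the 5 highest for any of these genes, for 1 of them. In replicate 3 of CTX-HC 30 DPI the summed value of 14 adult fast fibre genes was 2256000, against 4326000 and 5596000 in the other CTX-HC 30 DPI libraries. The part of these library differences in the group comparisons was not tested. In bulk tissue, fewer fibres of a kind and less transcript per fibre cannot be told apart.

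**Figure D4:**
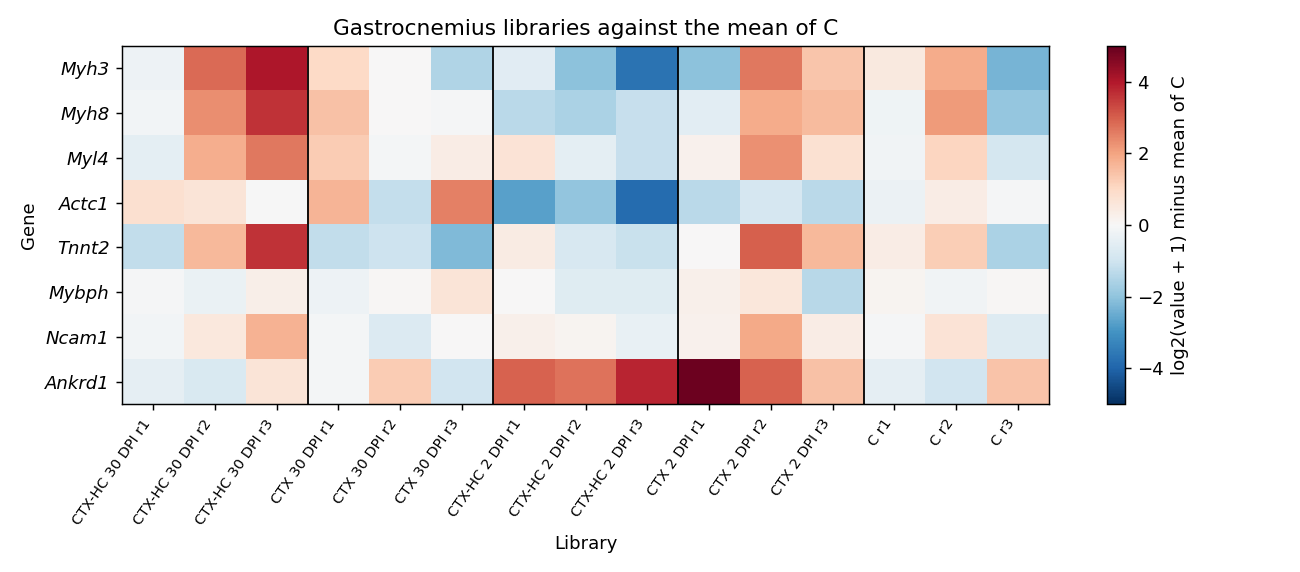
Log2(value + 1) of the 8 genes (rows) in each of the 15 gastrocnemius libraries (columns, by group and replicate number) minus the mean of the 3 C libraries, with red above and blue below that mean. Myh3, Myh8, Myl4, Tnnt2 and Ncam1 were red together in replicates 2 and 3 of CTX-HC 30 DPI, replicates 2 and 3 of CTX 2 DPI and replicate 2 of C, whereas Ankrd1 was red in all 6 libraries at 2 DPI and in few others.

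Genes most like each of the 8 over the 12 CTX libraries were sought by the root mean square difference in log2 value relative to C. The search covered tested genes other than the 8 and left out unnamed gene models (Gm numbers and Rik names). The 3 nearest to Myh8 were Shisal1 (0.752), Igf2 (0.849) and Pkhd1 (0.937), and the same genes were the 3 nearest to Myh3, at 1.22 to 1.26. Igf2 encodes a fetal growth factor. Within the 8 genes Myh8 was nearest to Myh3 (1.04), closer than any of those 3, and Myl4 was nearest to Myh8 (0.831). Nearest to Myl4 were Csdc2, Shisal1 and Igfbp2 (0.631 to 0.702), and nearest to Tnnt2 were Pkhd1, Rundc3a and Mymk (0.778 to 0.99), the last of which encodes the fusion protein myomaker. Ncam1 was nearest to Mboat2, Csdc2 and Erbb3 (0.328 to 0.392), and Erbb3 encodes a neuregulin receptor. Actc1 was nearest to Ptprz1, Lrtm1 and Klhl33 (0.789 to 0.851), Mybph to Zfp800, Prdm9 and Prkdc (0.389 to 0.401), and Ankrd1 to Krt80, Runx1 and S100a8 (0.706 to 0.966). S100a8 encodes a neutrophil protein and Runx1 a transcription factor.

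Other fetal and regenerating fibre genes were counted from a list of 12, of which 11 were tested. In CTX-HC 2 DPI against C only Nes, the intermediate filament protein nestin of immature fibres, passed and rose by 1.49 on the log2 scale (limma adjusted p = 0.0368). There 5.34% of all genes passed as higher and 4.59% as lower. The list's median was -0.76, against 0.02 over all genes. In CTX-HC 30 DPI against CTX-HC 2 DPI 4 of the 11 rose and 1, Nes, fell by 1.44. Of all genes 4.20% passed as higher and 5.54% as lower there. The list's median was 1.30, against 0.01 over all genes. The largest rises were 3.33 for Myh7b, a slow-type myosin heavy chain, and 2.54 for Igf2. None passed in CTX 2 DPI against C, where 10 of 11 had positive log2 fold changes (median 0.42), or between CTX-HC and CTX at either time.

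Of 17 satellite cell and myogenic regulators, 1 rose and 1 fell in CTX-HC 2 DPI against C, near the shares of all genes that passed (5.34% as higher and 4.59% as lower). Itga7, the laminin receptor subunit of muscle, rose by 1.53 (limma adjusted p = 0.00583) and Six4, a homeobox factor of myogenesis, fell by 0.88 (limma adjusted p = 0.038). In CTX-HC 30 DPI against CTX-HC 2 DPI Itga7 fell by 1.71 and Six4 rose by 0.85 (4.20% of all genes passed as higher and 5.54% as lower), and in CTX 30 DPI against CTX 2 DPI, where 0.214% passed as lower, Itga7 fell by 1.54. Of 11 genes of the sarcomeric stress response, the group to which Ankrd1 belongs, 2 rose in CTX-HC 2 DPI against C, Flnc (filamin C) by 1.84 and Cryab (αB-crystallin) by 1.77, and both fell in CTX-HC 30 DPI against CTX-HC 2 DPI, by 1.93 and 2.03. Of 10 YAP and TEAD genes Tead4, a TEAD factor, fell by 1.31 in CTX 30 DPI against CTX 2 DPI and by 1.07 in CTX-HC 30 DPI against CTX-HC 2 DPI, and no other passed there or in any comparison with C. Of 10 denervation and immature synapse genes Runx1 fell by 2.50 in CTX-HC 30 DPI against CTX-HC 2 DPI. In CTX-HC 30 DPI against CTX-HC 2 DPI, 1 of 10 genes is not far from the share of all genes (9.74%). The share in CTX 30 DPI against CTX 2 DPI, where Tead4 and Itga7 also passed, was far lower (0.257% in either direction).

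Markers of other cells and of adult fibre types moved with the 2 genes that passed. All 9 macrophage markers had positive log2 fold changes in CTX-HC 2 DPI against C, and 2 of them, Cd68 and Cd14, rose by 3.38 and 3.05. Their summed value was 6994 to 31470 in CTX-HC 2 DPI, 2519 to 12390 in CTX 2 DPI and 1013 to 4441 in C. The background was 9.93% of all genes past the threshold in CTX-HC 2 DPI against C and 9.74% in CTX-HC 30 DPI against CTX-HC 2 DPI. In CTX-HC 30 DPI against CTX-HC 2 DPI 5 of the 9 fell, with Cd68 at -4.89 and Itgam at -4.69. All 9 slow fibre genes had negative log2 fold changes in CTX-HC 2 DPI against C (3 passed, and Myh7 fell by 4.42 and Myl3 by 2.82), and 7 of the 9 rose in CTX-HC 30 DPI against CTX-HC 2 DPI, Myh7 by 7.82 and Tnnc1 by 5.70. Against C all 9 had positive log2 fold changes at 30 DPI, both in CTX-HC 30 DPI (median 2.58) and in CTX 30 DPI (median 2.04). None of these passed. Of 14 adult fast fibre genes 13 had negative log2 fold changes in CTX-HC 2 DPI against C (median -1.35, 2 passed), and all 14 had positive ones in CTX-HC 30 DPI against CTX-HC 2 DPI (median 1.11, 1 passed). All 4 tested neutrophil markers had positive log2 fold changes in CTX-HC 2 DPI against C (median 3.99, 1 passed) and negative ones in CTX-HC 30 DPI against CTX-HC 2 DPI (median -3.48, 1 passed). The summed value of the 6 neutrophil markers was 337 to 1800 in CTX-HC 2 DPI, 35.6 to 489 in CTX 2 DPI and 32.2 to 57.9 in C. The part of these markers in the changes of Ankrd1 and Actc1 was not tested.

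Soleus, a slow muscle that had not been injured, was used to compare HC with Ut mice. Myh3 was 303 to 1177 in HC (median 328) and 265 to 868 in Ut (median 303), and Myh8 was 38.8 to 174 in HC (median 47.3) and 27.7 to 82.9 in Ut (median 75.8). For Myh3, replicate 5 of HC and replicate 4 of Ut stood above the other libraries of their groups, which were at most 487 in HC and 399 in Ut. Ankrd1 was 319 to 859 in HC (median 598) and 229.8 to 817 in Ut (median 346). Its log2 fold change, 0.55 (standard error 0.32, limma adjusted p = 0.99), was the largest of the 8 genes, and 3.27% of all genes had as large a change. The groups overlapped.

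Mybph was far lower in soleus than in gastrocnemius, at 4.87 to 128 in HC (median 10.2) and 11.1 to 28.1 in Ut (median 15.9), but the 2 muscles were normalized separately and this was not tested. Actc1 was 269 to 542 in HC (median 429.6) and 255 to 487 in Ut (median 323). Ncam1 averaged 342 ± 58.9 in HC and 337 ± 58.9 in Ut, and Myl4 125 ± 39.9 in HC and 105 ± 35.4 in Ut (SD, n = 5 each). Tnnt2 was 108 to 175 in HC (median 143) and 106 to 169 in Ut (median 131). Of the 8 genes 0 passed in soleus (limma; 0% of all genes), 0 had an unadjusted p under 0.05 (5.05% of all genes had) and 0 had groups that did not overlap (1.10% of all genes). The median log2 fold change was 0.15, against -0.01 over all genes. For Ncam1 the 95% confidence interval ran from -0.29 to 0.33, for Tnnt2 from -0.26 to 0.44 and for Myh3 from -0.62 to 1.08. All 6 tested Schwann cell markers had positive log2 fold changes in HC (median 1.21, none passed), and their summed value was highest in replicates 5 and 1 of HC, at 5419 and 3658, against 790.9 to 1315 in Ut.

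**Figure D5:**
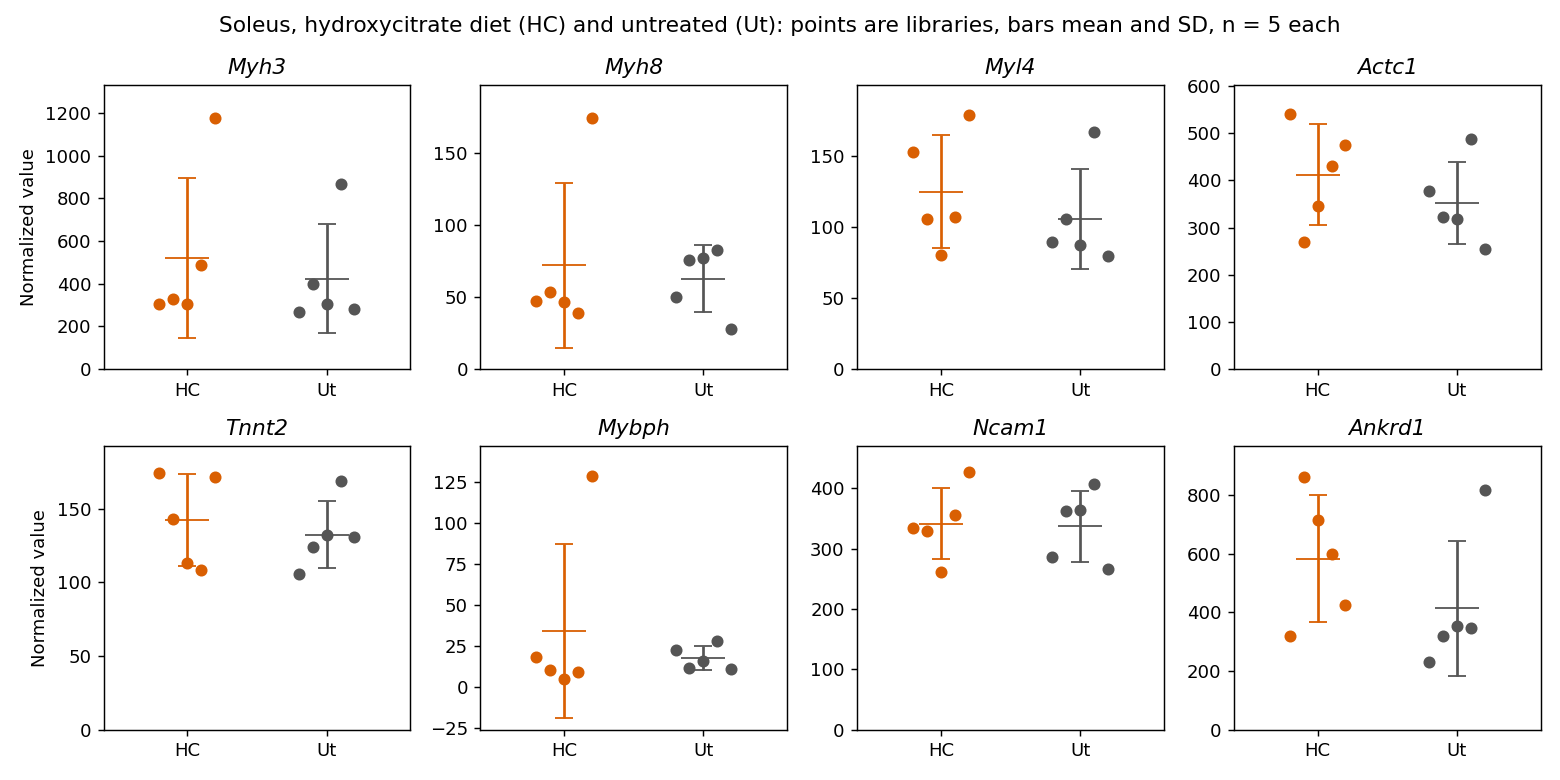
Normalized values of the 8 genes in soleus of HC and Ut mice, where each library is a point and error bars give the mean and SD (n = 5 per group). The groups overlapped for every gene, and replicate 5 of HC had the highest Myh3, Myh8 and Mybph values, at 1177, 174 and 128.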

How the data were processed

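RNA was extracted with RNeasy columns, and libraries were stranded. The gastrocnemius libraries were made with an mRNA ligation kit, and the labels name rRNA depletion for soleus. The authors aligned reads to mm10 with a STAR-based application. The deposited values are a signal per gene and not counts, since the authors divided gene counts by size factors (median of ratios, DESeq2). At most 35.5% of low values of a library lay within 0.01 of a whole read, which does not allow whole reads to be recovered, and no count test was run. Depth was estimated by taking the commonest low value of a library as 1 read.

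Values were taken to log2 after adding 1, which understates fold changes of low genes. The filter kept genes that reached 10 in 3 or more gastrocnemius, or 5 or more soleus, libraries, and they were tested with limma 3.58.1 in R 4.3.3 (empirical Bayes with a trend), all groups of a muscle in 1 fit, for 10 comparisons. The fit was tested on simulated data with 100 genes changed by 1 and 100 by 2 on the log2 scale. For CTX-HC 2 DPI against CTX 2 DPI it recovered 37% and 64% of them, and for soleus 75% and 96%. It called 3 and 10 unchanged genes. A gene that did not pass may therefore still differ. Genes outside the 8 were named from each list when among its 2 largest rises or falls that passed. Members and lists were chosen with earlier results of these data known. Gene positions and promoters are RefSeq for GRCm38, the assembly of mm10, and shared 50-base stretches were counted in GENCODE transcripts. Alternatives were other pseudocounts, filters, normalizations and fits, leaving out each library, and leaving out the outlying pair.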

Additional observations from a re-analysis of the deposited data

Results flagged for a closer look

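In soleus, 5 values stood apart from the other 4 libraries of their group by Dixon's test, among 16 gene and group combinations, of which chance flags about 1 in 20. Replicate 5 of HC had a Myh3 value of 1177 (others 303 to 487), a Myh8 value of 174 (others 38.8 to 53.1) and a Mybph value of 128 (others 4.87 to 18.1). Replicate 4 of Ut had a Myh3 value of 868 (others 265 to 399), and replicate 5 of Ut an Ankrd1 value of 817 (others 229.8 to 353.5). Without replicate 5 of HC the log2 fold change of Myh3 was -0.12.

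Ncam1 in AML12 hepatocytes, which the comparisons above do not use, averaged 1043 in cells with control siRNA and HC (libraries 793, 824 and 1513), above the highest untreated library (713). With control siRNA it averaged 1057 under SB and 1085 under Bemp, against 699.6 untreated, and with Acly siRNA 1426 under HC, 1369 under SB and 1312 under Bemp, against 1403 untreated. The highest library of each of these groups other than the untreated one with control siRNA carries a number from 81 to 87, and that untreated group has no library of that number range. The part of this in the difference was not tested, nor was the difference.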

How the results depend on the processing

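Among the single values of the 8 genes under settings other than left-out libraries, 747 kept their direction and side of the threshold, 16 passed only there, 3 no longer passed and 10 turned sign. Where libraries were left out in turn these counts were 1081, 3, 19 and 57. Counts of all genes that passed are given next. For CTX 2 DPI against C they were 2 with a pseudocount of 5, 5 after quantile normalization, 664 at the authors' threshold (unadjusted p of at most 0.05 and absolute log2 fold change of at least 1; 1 of the 8 genes), 2 with only the 2 groups fitted and 33 without the outlying pair. For CTX-HC 2 DPI against C they were 2321 (quantile), 2594 (threshold), 4292 (2 groups), 232 with library numbers above 100 as a covariate (1 of the 8 genes, the call of Ankrd1 being lost) and 4326 (without the pair). For CTX-HC 2 DPI against CTX 2 DPI, CTX 30 DPI against C, CTX-HC 30 DPI against C and CTX-HC 30 DPI against CTX 30 DPI the authors' threshold gave 249, 229, 196 and 60 (2, 0, 0 and 1 of the 8 genes). These counts apply the threshold to limma p values. For CTX-HC against CTX at both times they differ from the counts the authors reported from DESeq2. For CTX 30 DPI against CTX 2 DPI counts were 14 (no trend), 1246 (threshold, 3 of the 8 genes), 2 (2 groups), 4 (covariate) and 1120 (without the pair, 1 of the 8 genes). For CTX-HC 30 DPI against CTX-HC 2 DPI they were 2070 (quantile, 4 of the 8 genes), 2147 (threshold, 4), 23 (2 groups, 0) and 5182 (without the pair). For the interaction and soleus the threshold gave 178 (4 of the 8 genes) and 39. The omission of the pair was chosen after the data were seen. It removes no library of CTX-HC 2 DPI or C, so in that comparison it changed only the spread shared by all groups.

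Without the outlying pair these log2 fold changes turned sign: Mybph 0.41 in CTX 2 DPI against C and -0.27 in CTX 30 DPI against CTX 2 DPI, and Ankrd1 -0.75 in CTX-HC 2 DPI against CTX 2 DPI and 0.071 in the interaction. After quantile normalization Ncam1 was -0.029 in CTX-HC 2 DPI against C, Ankrd1 -0.0012 in CTX 30 DPI against C, and Mybph 0.072 in CTX-HC 30 DPI against C and -0.046 in the interaction. Mybph was -0.030 in the interaction with the covariate and 0.074 in soleus with a pseudocount of 5. The causes were not tested.

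With 1 library left out in turn, counts of all genes ran from 0 to 80 (CTX 2 DPI against C), 33 to 4063 (CTX-HC 2 DPI against C), 0 to 1218 (CTX 30 DPI against CTX 2 DPI) and 160 to 5077 (CTX-HC 30 DPI against CTX-HC 2 DPI), and from 0 to 1 in CTX-HC 2 DPI against CTX 2 DPI, CTX-HC 30 DPI against C, CTX-HC 30 DPI against CTX 30 DPI, the interaction and soleus. Of the 8 genes 0 to 2, 0 to 1 and 0 to 3 passed in CTX-HC 2 DPI against C, CTX 30 DPI against CTX 2 DPI and CTX-HC 30 DPI against CTX-HC 2 DPI. Ranges of log2 fold changes that turned sign were, in CTX 2 DPI against C, Myh3 -0.52 to 2.00 and Mybph -0.55 to 0.41. In CTX-HC 2 DPI against C they were Myl4 -0.81 to 0.22, Tnnt2 -1.29 to 0.13 and Ncam1 -0.31 to 0.37, and against CTX 2 DPI Mybph -0.81 to 0.15 and Ankrd1 -0.75 to 0.96. In CTX 30 DPI against C they were Myh3 -1.33 to 0.76, Myh8 -0.48 to 1.54, Ncam1 -0.58 to 0.091, Mybph -0.11 to 0.35 and Ankrd1 -0.52 to 0.80. In CTX-HC 30 DPI against C they were Mybph -0.19 to 0.12 and Ankrd1 -0.67 to 0.53, and against CTX 30 DPI Actc1 -1.64 to 0.21, Mybph -0.38 to 0.086 and Ankrd1 -0.77 to 0.34. In CTX 30 DPI against CTX 2 DPI they were Myh3 -2.16 to 0.17, Myl4 -1.03 to 0.0062 and Mybph -0.27 to 0.69, in the interaction Mybph -0.33 to 0.64 and Ankrd1 -1.23 to 0.49, and in soleus Myh3 -0.12 to 0.53, Myh8 -0.33 to 0.21, Ncam1 -0.064 to 0.11 and Mybph -0.74 to 0.38.

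In soleus the replicate block left 0 of the 8 genes and 0 of all genes past the threshold. Correlations of same-numbered libraries ran from -0.112 to 0.403, and only the library of number 1 correlated best with its own number. The labels do not say what a replicate number marks, and these correlations cannot decide whether samples were paired. No paired analysis was possible for gastrocnemius because its labels give no shared replicate numbers.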

Other observations

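Outside muscle most of the 8 genes were near 0. In 10 liver libraries Myh3 and Mybph were listed at 0 throughout, and Myh8 was 239 in library 5 of untreated mice and 0 in the other 9. In 24 AML12 libraries Actc1 and Mybph were listed at 0, while Ankrd1 was 207 to 845, Tnnt2 111 to 1569 and Ncam1 688 to 2157.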
